A study of Mus musculus with 16 samples.

Results

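The leucine-rich repeat transmembrane (LRRTM) genes Lrrtm1 to Lrrtm4 and the synaptic adhesion-like molecule (SALM) genes Lrfn1 to Lrfn5 are 9 of the 54532 genes in the deposited count table, and they were taken by symbol, as the members of 2 named families. All 9 were also found in the table of TPM, a read count scaled for transcript length and for the library total, and all 9 passed the filter on low counts, with 62 to 2110 reads for each gene in each library. RNA was sequenced from parvalbumin (PV) interneurons of the adult mouse cortex in 16 libraries, 7 from PV-Cre;lsl-eGFP-GluA2 mice and 9 from PV-Cre;lsl-eGFP mice. Mice of both groups carry PV-Cre, which removes a stop cassette in PV cells, so that these express either eGFP fused to the AMPA receptor subunit GluA2 or eGFP alone as the control. Mean age over the study was 113.1 ± 11.6 days, and green, nucleated cells were sorted from each cortex after digestion and 15 min of fixation in 4% paraformaldehyde. The comparison asks what changes when calcium-permeable AMPA receptors, which lack GluA2, are removed from these cells. The promoter of the transgene and the age, sex and processing day behind each library are not given in the sources used.

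LRRTM proteins sit in the postsynaptic membrane, mainly of excitatory synapses, and bind presynaptic neurexins across the cleft. LRRTM1 and LRRTM2 help to hold AMPA receptors at synapses, and LRRTM4 also binds heparan sulphate proteoglycans such as glypicans. SALM proteins add an immunoglobulin and a fibronectin domain to the leucine-rich repeats. SALM1 (Lrfn2), SALM2 (Lrfn1) and SALM3 (Lrfn4) end in a motif that binds PDZ domains of the scaffold PSD-95, whereas SALM4 (Lrfn3) and SALM5 (Lrfn5) lack it. SALM3 and SALM5 bind presynaptic receptor tyrosine phosphatases of the LAR family. In PV interneurons, as in other neurons, such molecules take part in forming the synapses that the cell receives.

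The ends of 4 SALM coding sequences are shown because they mark the split of the family between members with and without the PDZ-binding end. Each line gives the last 36 bases of the longest protein-coding model in GENCODE M21 (GRCm38), 5′ to 3′ on the coding strand, with the last 12 bases before the stop codon in capitals.
Lrfn1: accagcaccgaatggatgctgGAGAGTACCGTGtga
Lrfn2: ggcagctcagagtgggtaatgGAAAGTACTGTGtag
Lrfn3: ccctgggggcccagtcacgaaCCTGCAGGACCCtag
Lrfn5: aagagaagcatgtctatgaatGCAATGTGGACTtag
Lrfn1 and Lrfn2 were identical at 10 of these 12 bases. Lrfn3 shared 0 of the 12 bases with Lrfn1 or Lrfn2 and 3 with Lrfn5. The sequences lie on the + strand at chr7:28467448-28467483 (Lrfn1), chr17:49097182-49097217 (Lrfn2) and chr12:61844132-61844167 (Lrfn5), and on the - strand at chr7:30355638-30355673 (Lrfn3).

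The libraries held 7454165 to 15462544 counts, of which the 9 genes took 3051 to 7681 (0.0386% to 0.0497%). Gria2, which encodes GluA2 and checks the labels, lay at 142 to 300.0 TPM in eGFP-GluA2 libraries and at 57.2 to 107.7 TPM in eGFP libraries, without overlap. In edgeR's quasi-likelihood test Gria2 had a log2 fold change of 0.71 ± 0.16 (SE) with an adjusted p of 1.00, and of 0.69 ± 0.11 with an adjusted p of 0.0120 once the background described next was a covariate. Libraries differed in reads of 1953 autosomal olfactory and vomeronasal receptor genes, which cortical neurons are not known for, and this share is called the background. It was 97.5 to 182 CPM, reads scaled to a common library total, in 5 low libraries (2 eGFP-GluA2, 3 eGFP). It was 750.1 to 1417 CPM in 5 middle libraries (3 eGFP-GluA2, 2 eGFP) and 2112 to 4594 CPM in 6 high libraries (2 eGFP-GluA2, 4 eGFP). For single genes and marker sums, CPM used library totals multiplied by a scaling factor for library composition (TMM). This factor ran from 0.81 (eGFP replicate 8) to 1.40 (eGFP replicate 4). It was 0.98 to 1.40 in high, 0.84 to 0.96 in middle and 0.81 to 0.91 in low libraries, and thus highest where background was high. Tier levels in CPM and slopes fitted on counts depend on such a factor, and no slope was fitted on library totals alone. The 10 PV interneuron markers summed to 4418 to 10995 CPM in eGFP-GluA2 libraries and 4013 to 11392 CPM in eGFP libraries. The 10 excitatory neuron markers summed to 233 to 329 CPM in eGFP-GluA2 libraries and 193 to 321 CPM in eGFP libraries. No gene of the 8 marker lists was at 0 in every library.

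Measured per transcript length, 4 of the genes stood at a similar level and the other 5 followed in a fixed order. Lrfn5 averaged 22.0 ± 6.90 TPM in eGFP-GluA2 libraries and 20.0 ± 3.41 TPM in eGFP libraries (SD, n = 7 and 9). Lrrtm4 averaged 19.9 ± 5.28 TPM in eGFP-GluA2 libraries and 19.4 ± 3.96 TPM in eGFP libraries. Lrrtm2 averaged 19.3 ± 7.42 TPM in eGFP-GluA2 libraries and 17.7 ± 3.67 TPM in eGFP libraries. These genes and Lrrtm3, at 18.4 ± 5.45 TPM in eGFP-GluA2 libraries and 16.5 ± 3.24 TPM in eGFP libraries, filled the top 4 places in all 16 libraries, and neighbours among them did not differ beyond their SD. Lrfn5 was first in 10 libraries, Lrrtm4 in 4 and Lrrtm2 in 2.

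Below them came Lrfn1 with 11.4 ± 4.10 TPM in eGFP-GluA2 libraries and 9.22 ± 1.5 TPM in eGFP libraries. Lrfn4 had 6.65 ± 1.93 TPM in eGFP-GluA2 libraries and 5.55 ± 0.831 TPM in eGFP libraries, and Lrrtm1 had 5.14 ± 1.44 TPM in eGFP-GluA2 libraries and 4.45 ± 0.603 TPM in eGFP libraries. Lrfn3, at 3.74 ± 1.5 TPM in eGFP-GluA2 libraries and 3.22 ± 0.605 TPM in eGFP libraries, was followed by Lrfn2 with 1.62 ± 0.355 TPM in eGFP-GluA2 libraries and 1.52 ± 0.368 TPM in eGFP libraries. Places 5 to 9 (Lrfn1, Lrfn4, Lrrtm1, Lrfn3, Lrfn2) were the same in all 16 libraries. In eGFP-GluA2 libraries the only neighbours whose mean ± SD ranges did not meet were Lrfn3 and Lrfn2. In eGFP libraries the ranges also stayed apart between Lrrtm3 and Lrfn1, Lrfn1 and Lrfn4, and Lrrtm1 and Lrfn3. The LRRTM genes held 58.1 ± 1.80% of the summed TPM of both families in eGFP-GluA2 libraries and 59.5 ± 1.89% in eGFP libraries. Within the SALM family Lrfn5 alone held 48.5 ± 2.52% in eGFP-GluA2 libraries and 50.5 ± 2.43% in eGFP libraries, and Lrfn2, the NMDA receptor-binding SALM1, held 3.73 ± 1.05% in eGFP-GluA2 libraries and 3.86 ± 0.880% in eGFP libraries. In bulk samples of this kind, fewer cells that express a gene and less RNA per cell cannot be told apart.

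**Figure D1:**
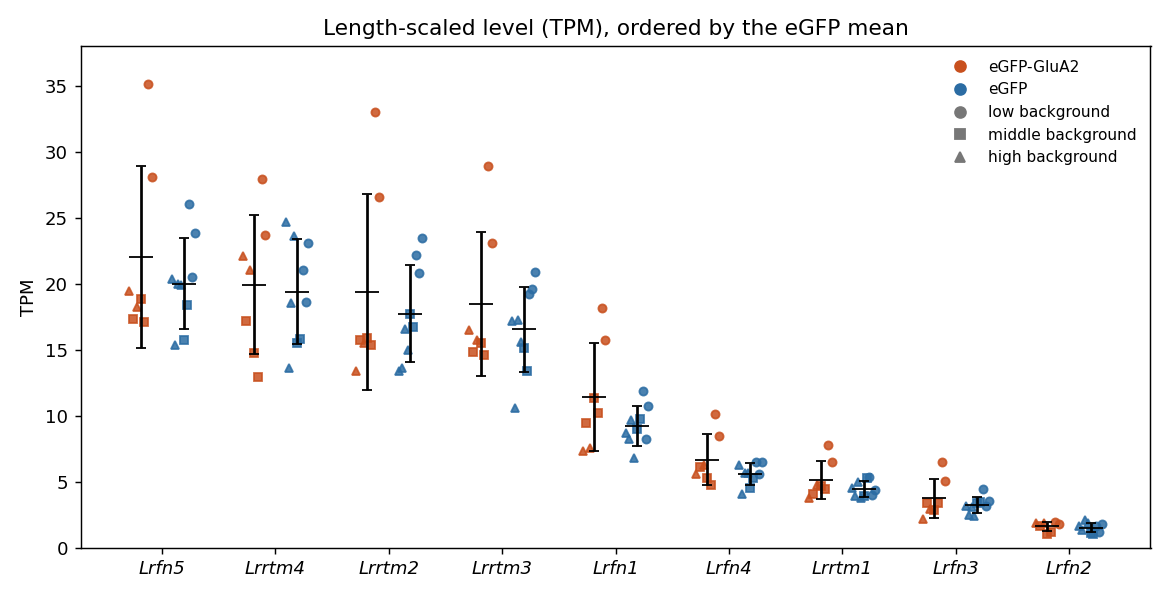
TPM of the 9 genes (y axis, linear), in the order of the eGFP mean along the x axis; points are libraries, eGFP-GluA2 left and eGFP right for each gene, with marker shape for background, and bars are mean ± SD (n = 7 and 9). The leading 4 genes average 16.5 to 22.0 TPM and overlap, while Lrfn2 is last at about 1.5 TPM; the 2 highest points of most genes are the low-background eGFP-GluA2 libraries.

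The places of all genes but Lrfn2 depended on the scale, which changes both the reads counted and the length they are divided by. Lrrtm4 and Lrfn5 moved furthest. Dividing the counts by exonic length, Lrrtm4 had 5.33 ± 1.05 CPM per kb over all libraries and fell to place 8, whereas Lrrtm2 led with 18.7 ± 5.61 CPM per kb and Lrrtm3 followed with 16.9 ± 4.20 CPM per kb (SD, n = 16). Lrfn5 stood in place 5 on that scale, with 9.31 ± 1.95 CPM per kb over 9540 bp of exons. Lrfn4 went from place 6 in mean TPM to place 3, with 11.1 ± 2.21 CPM per kb. Lrfn1 was next in place 4, with 10.9 ± 3.16 CPM per kb. The deposited normalized counts let a second set of whole reads be recovered, and for Lrrtm4 these came to 1.67 to 2.78 times the deposited counts, with a median of 2.11. For the other 8 genes the median ratio lay between 0.950 and 1.07, whereas the totals of whole libraries came to 1.12 to 1.49 times the deposited ones (median 1.38). Of the exonic bases of Lrrtm4 (chr6:80018877-80810143, + strand), 1543 bp or 25.1% overlap the antisense gene Gm4409. No source used here gives the strand setting of the counting, so reads of Lrrtm4 in that stretch are uncertain, and the part of the overlap in the difference between sources was not tested. Smaller overlaps on the opposite strand cover 4.53% of Lrfn2 exons (the miRNA gene Gm44304) and 1.58% of Lrrtm2 exons (Ctnna1).

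**Figure D2:**
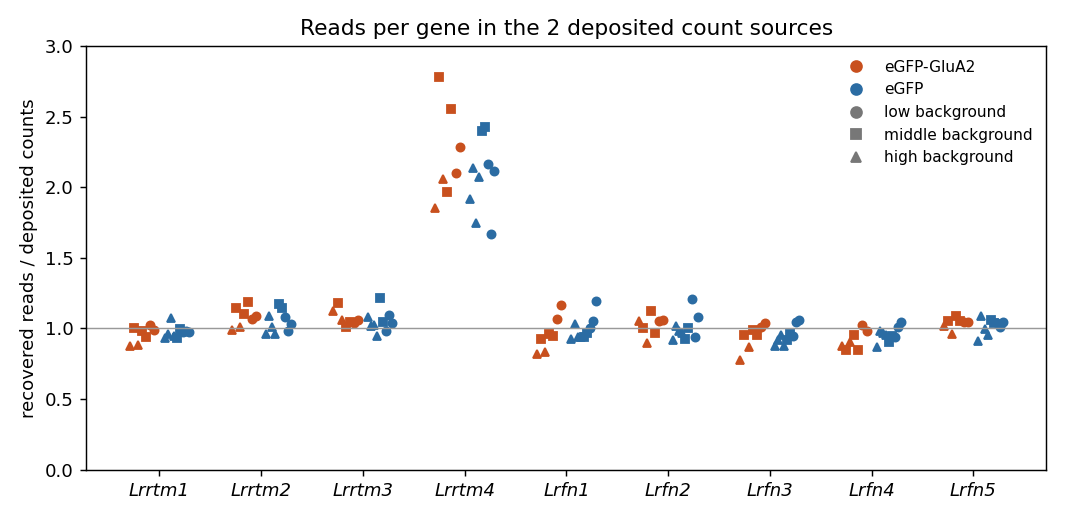
Reads recovered from the deposited normalized counts divided by the deposited counts (y axis, linear ratio) for each gene (x axis); points are libraries, eGFP-GluA2 left and eGFP right, and the line marks a ratio of 1. Lrrtm4 lies at 1.67 to 2.78 in every library, and the other genes scatter around 1.

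For the LRRTM genes, no difference between the groups passed the test. Lrrtm1 had 16.6 CPM at the lowest, 28.4 at the median and 31.8 at the highest in eGFP-GluA2 libraries, against 14.2, 25.5 and 34.5 CPM in eGFP libraries. The log2 fold change of Lrrtm1 was 0.12 ± 0.18 (SE; 95% interval -0.25 to 0.50). The eGFP range held that of eGFP-GluA2 on both sides. Lrrtm2, a neurexin ligand that anchors AMPA receptors, had 67.0, 112 and 149 CPM (lowest, median, highest) in eGFP-GluA2 libraries and 63.9, 121 and 172 CPM in eGFP libraries. Its log2 fold change was -0.06 ± 0.22 (-0.54 to 0.41), the widest interval of the 4 LRRTM genes, and the groups overlapped over nearly their whole range. Lrrtm3 had 49.2, 81.7 and 91.3 CPM in eGFP-GluA2 libraries and 49.5, 68.0 and 98.6 CPM in eGFP libraries, with a log2 fold change of 0.03 ± 0.18 (-0.36 to 0.42). Its groups overlapped as fully as those of Lrrtm2. Lrrtm4, the glypican-binding member, had 24.2, 32.8 and 35.6 CPM in eGFP-GluA2 libraries and 28.7, 30.8 and 50.5 CPM in eGFP libraries. Its log2 fold change was -0.16 ± 0.13 (-0.44 to 0.12), with 3 of 7 eGFP-GluA2 libraries below every eGFP library and the others inside the eGFP range. On the log2(TPM + 0.5) scale the values were 0.08 for Lrrtm2 and 0.02 for Lrrtm4, so the direction of neither was fixed.

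The SALM genes did not pass the test either, and the PSD-95-binding members Lrfn1 and Lrfn4 had the largest positive values of the 9 genes. Lrfn1 (SALM2) had 27.9, 49.6 and 63.6 CPM (lowest, median, highest) in eGFP-GluA2 libraries and 20.6, 40.3 and 53.8 CPM in eGFP libraries. Its log2 fold change was 0.24 ± 0.21 (SE; 95% interval -0.20 to 0.69), and 2 of 7 eGFP-GluA2 libraries exceeded the highest eGFP value. Lrfn4 (SALM3), a ligand of LAR-family phosphatases, had 28.7, 43.4 and 48.0 CPM in eGFP-GluA2 libraries and 24.8, 36.8 and 42.9 CPM in eGFP libraries. In log2 CPM, 5 of 7 eGFP-GluA2 libraries exceeded the highest eGFP value, and the other 2 were the high-background libraries. Its log2 fold change was 0.22 ± 0.14 (-0.08 to 0.51). Lrfn2 (SALM1), the third member with the PDZ-binding end, had 7.18, 8.74 and 10.4 CPM in eGFP-GluA2 libraries and 7.23, 8.79 and 9.94 CPM in eGFP libraries, with a log2 fold change of -0.00088 ± 0.10 (-0.22 to 0.22). That interval was the narrowest of the 9 genes.

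Of the SALM genes without that end, Lrfn3 (SALM4) had 12.1, 22.3 and 26.6 CPM in eGFP-GluA2 libraries and 10.5, 19.9 and 27.0 CPM in eGFP libraries. The log2 fold change of Lrfn3 was 0.09 ± 0.21 (SE; 95% interval -0.35 to 0.53). Lrfn5 (SALM5), the SALM with the highest mean TPM, had 64.5, 94.8 and 109.6 CPM in eGFP-GluA2 libraries and 64.4, 81.3 and 114 CPM in eGFP libraries, with a log2 fold change of -0.0021 ± 0.16 (-0.34 to 0.33). On the log2(TPM + 0.5) scale Lrfn5 had 0.10, and Lrfn2 had 0.07. Lrfn3 and Lrfn5 overlapped between the groups over nearly their whole range.

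Over both families, 0 of 9 genes passed an adjusted p of 0.05 in edgeR's quasi-likelihood test, where 1 of 26257 tested genes did (0.00381%). The adjusted p was 1.00 for each of the 9. At an unadjusted p under 0.05 the count was again 0 of 9, against 1.12% of all tested genes, and DESeq2 called 0 of 9, against 0.0533% of genes. The log2 fold changes were above 0 for 5 genes and below 0 for 4, with a median of 0.03 beside -0.02 over all tested genes; on the log2(TPM + 0.5) scale Lrrtm2, Lrrtm4, Lrfn2 and Lrfn5 also lay above 0, where the median gene was at 0.06. In the authors' deposited table the log2 fold changes of the 9 genes run from -0.08 (Lrrtm4) to 0.11 (Lrfn1 and Lrfn4). The table does not state their direction, but for each of the 9 genes the sign is that of the edgeR value for eGFP-GluA2 over eGFP. With the background as a covariate the interval of Lrfn4 ran from 0.01 to 0.41 around 0.21, with an unadjusted p of 0.0432 and an adjusted p of 1.00 in edgeR, where 3.79% of genes had an unadjusted p under 0.05. The intervals of the other 8 genes included 0 in that fit too, which called 0 of 9 genes beside 0.0343% of all tested genes at an adjusted p under 0.05. The intervals give the sizes of difference that remain possible at this depth and number of libraries, and they do not show that levels were equal.

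**Figure D3:**
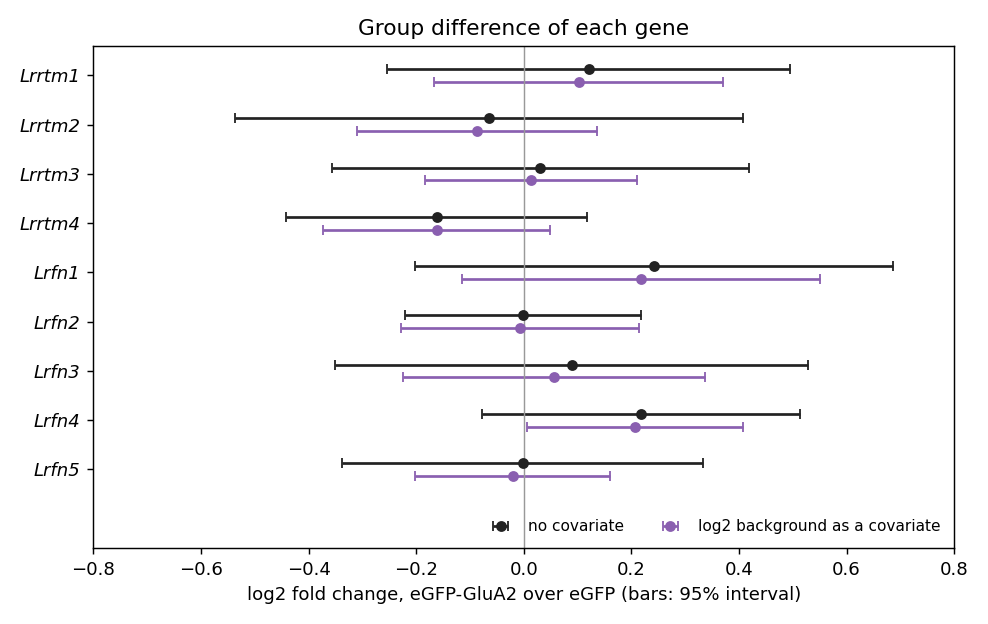
log2 fold change of each gene, eGFP-GluA2 over eGFP (x axis), with its 95% interval as bars; black points are the fit without a covariate and purple points the fit with log2 background as a covariate (7 eGFP-GluA2 and 9 eGFP libraries). Every black interval crosses 0, and of the purple ones only that of Lrfn4 does not.

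The groups were also set side by side within tiers of similar background, which narrows its range but does not remove it. Among low-background libraries, Lrfn4 lay higher in eGFP-GluA2 without overlap in log2 CPM, at 5.45 and 5.52 in the 2 eGFP-GluA2 libraries and 5.40, 5.37 and 5.29 in the 3 eGFP libraries. This was 1 of 9 genes, beside 9.23% of all tested genes. Among middle-background libraries Lrfn4 again lay higher without overlap, at 5.59, 5.44 and 5.48 in eGFP-GluA2 and 5.21 and 5.43 in eGFP. This was 1 of 9 genes beside 8.86%. Among high-background libraries the groups overlapped for each of the 9 genes, where 11.1% of all tested genes did not overlap, and over all 16 libraries they overlapped for each of the 9 too, where 0.019% did not. Lrrtm4 lay lower without overlap among low-background libraries, at 5.16 and 5.07 in eGFP-GluA2 and 5.19, 5.66 and 5.39 in eGFP, which was 1 of 9 genes beside 15.3%. Each of these shares is near the background, and tiers of 2 against 3 libraries carry no test here.

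On the TPM scale the low tier looked different, since all 9 genes were higher in the 2 eGFP-GluA2 libraries than in the 3 eGFP libraries, beside 47.4% of all genes. Lrfn5, for example, had 35.1 and 28.1 TPM in eGFP-GluA2 libraries and 26.0, 20.5 and 23.8 TPM in eGFP libraries. In that tier the median gene was itself 0.33 higher in eGFP-GluA2 in log2(TPM + 0.5), and the 2 eGFP-GluA2 libraries gave the highest TPM of Lrrtm1, Lrrtm2, Lrrtm3, Lrfn1, Lrfn3, Lrfn4 and Lrfn5 in the whole series. Among middle-background libraries 1 gene, Lrrtm2, was lower in eGFP-GluA2 without overlap, at 15.7, 15.9 and 15.3 TPM against 17.7 and 16.7 TPM in eGFP, beside 9.33% of all genes.

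**Figure D4:**
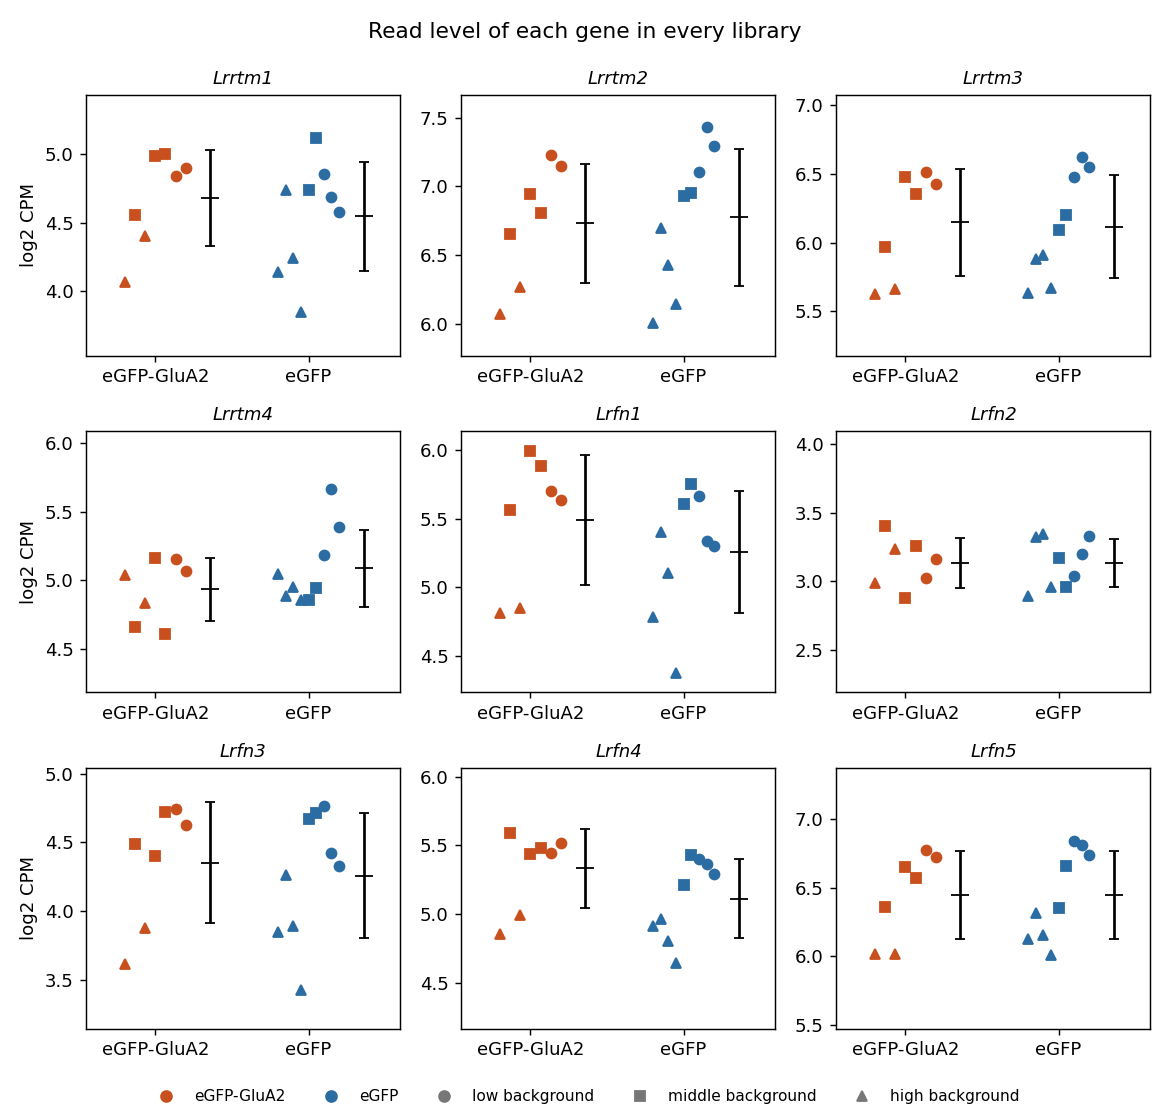
log2 CPM of each gene (y axis, a span of 1.9 in every panel) in every library, with eGFP-GluA2 left and eGFP right; marker shape gives the background tier and the bars mean ± SD (n = 7 and 9). The groups overlap in all 9 panels, and the high-background libraries lie mostly below the others for 7 genes, but not for Lrrtm4 and Lrfn2.

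On TMM-scaled counts, most of the genes followed the library background. The TMM factor was itself highest in the high libraries, and its part in these falls was not tested. In a fit with both terms, 8 of 9 genes fell with rising background, beside 31.5% of all tested genes that fell and 44% that rose; among protein-coding genes 43.5% fell and 40.9% rose. With the replicate number as a block in addition, 0 of 9 slopes passed (adjusted p = 0.133 to 0.901, edgeR). In that fit 96 of 26257 tested genes fell and 4591 rose. Lrrtm2 had a slope of -0.19 there, with an SE of 0.10 in place of 0.03. Without the block Lrrtm2 fell most, by 0.20 ± 0.03 log2 units for each doubling of the background (SE; adjusted p = 3.94e-07, edgeR). It had a median of 149 CPM in low, 121 CPM in middle and 73.7 CPM in high libraries. Lrrtm3 fell by 0.16 ± 0.02 (adjusted p = 1.44e-06) and had medians of 91.3, 73.4 and 50.6 CPM in low, middle and high libraries. Lrfn5 fell by 0.14 ± 0.02 (adjusted p = 3.08e-06), and its tiers did not overlap, with 105.5 to 114 CPM in low, 81.3 to 101.0 CPM in middle and 64.4 to 79.4 CPM in high libraries. These 3 genes stepped down at each tier. Over the whole span of background the fitted level of Lrrtm2 came to 47.0% of its level at the low end.

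Another 4 genes had a median in the middle tier at or above that of the low tier and a lower one in the high tier only. Lrfn1 had medians of 49.6 CPM in low, 53.8 CPM in middle and 28.3 CPM in high libraries, with a slope of -0.12 ± 0.04 (SE; adjusted p = 0.0133, edgeR). Lrfn3 had 24.5, 25.3 and 14.4 CPM in low, middle and high libraries, with a slope of -0.15 ± 0.03 (adjusted p = 0.000398). Lrfn4 had 42.1, 43.1 and 29.3 CPM, with a slope of -0.10 ± 0.02 (adjusted p = 0.000573). Lrrtm1 had 28.4, 31.5 and 18.1 CPM, with a slope of -0.11 ± 0.03 (adjusted p = 0.00518). A straight line is thus a coarse summary for them, and the grouping of the genes by shape was made after their values were seen.

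Lrrtm4 and Lrfn2 did not follow either course. Lrrtm4 had medians of 36.2 CPM in low, 28.8 CPM in middle and 30.1 CPM in high libraries, and its slope of -0.08 ± 0.02 (SE) passed the test with an adjusted p of 0.00589 in edgeR. That call was lost without eGFP replicate 2 (adjusted p = 0.152), eGFP replicate 5 (0.0533), eGFP-GluA2 replicate 2 (0.0599) or eGFP-GluA2 replicate 4 (0.0605), each with the same edgeR fit. Lrfn2 had 8.74, 8.79 and 8.47 CPM in low, middle and high libraries after TMM scaling. By library total alone, its share of reads was higher in every high library than in every low one. At the closest, Lrfn2 had 104 of 10960661 counts in eGFP replicate 2 (high) and 114 of 13426982 in eGFP replicate 9 (low). The slope of Lrfn2 on TMM-scaled counts was -0.0025 ± 0.03, with an interval of -0.06 to 0.05 and an adjusted p of 0.934 in edgeR. PV markers moved with the 8 genes: all 10 of them fell with background, Pvalb by 0.29 and Gad1 by 0.24 log2 units per doubling, and their sum was 10809 to 11392 CPM in low, 8823 to 9975 CPM in middle and 4013 to 7509 CPM in high libraries. Some markers of other cells rose with background. All 3 oligodendrocyte precursor markers rose, with a sum of 4.47 to 8.04 CPM in low, 12.7 to 24.0 CPM in middle and 31.2 to 37.2 CPM in high libraries. So did 4 of 5 endothelial and mural markers (6.45 to 15.5 CPM in low, 13.7 to 23.3 CPM in middle and 29.4 to 45.5 CPM in high libraries) and 3 of 5 microglia markers. Of the 10 excitatory neuron markers 7 rose and 3 fell, and their sum was 268 to 325 CPM in low, 289 to 329 CPM in middle and 193 to 251 CPM in high libraries. The part of these markers, or of the library as a whole, in the fall of the 8 genes was not tested.

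**Figure D5:**
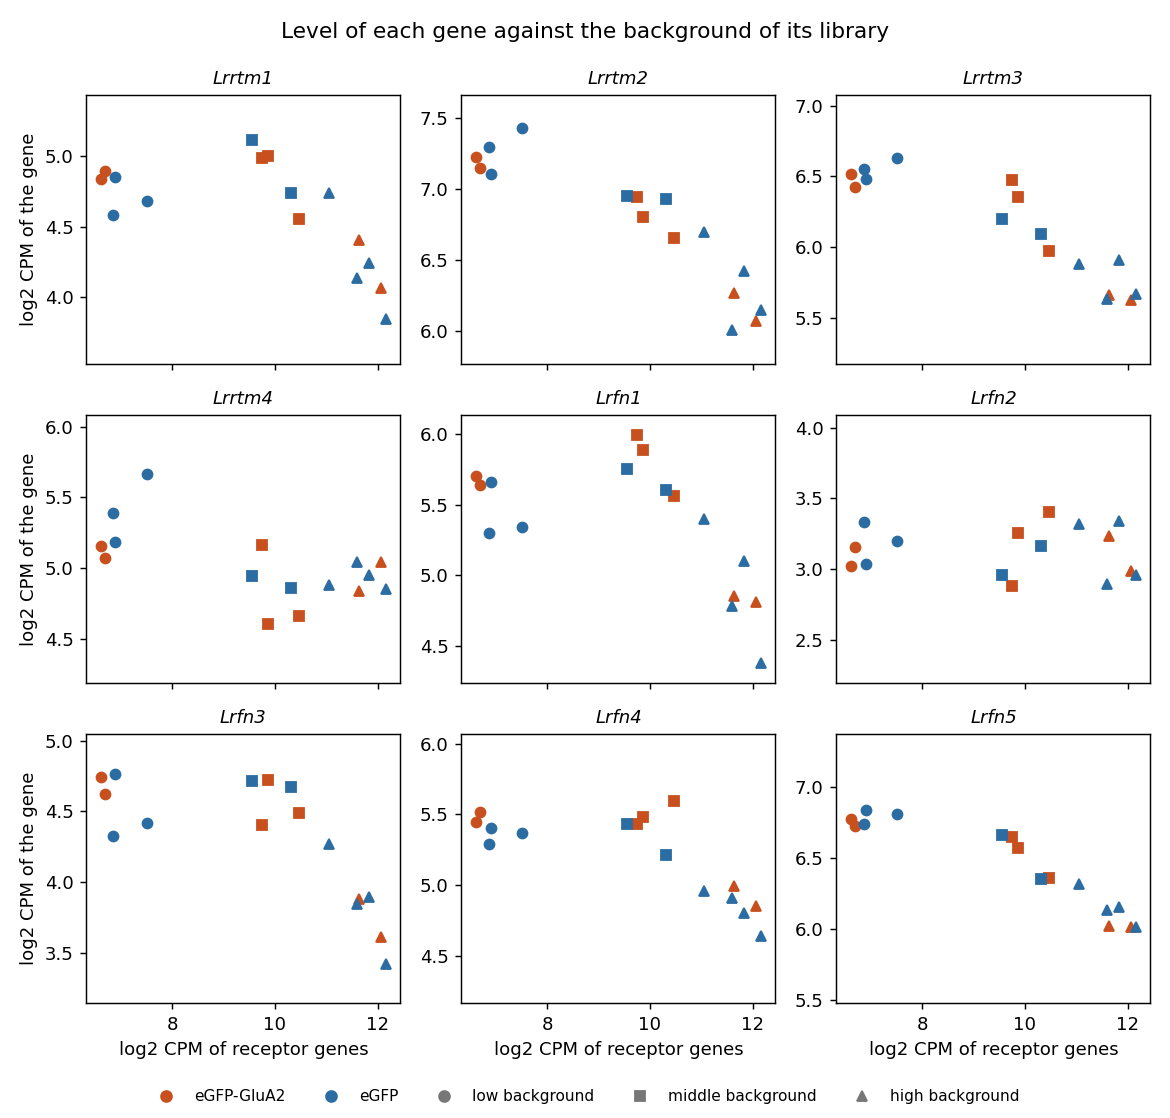
log2 CPM of each gene (y axis, a span of 1.9 in every panel) against log2 CPM of the olfactory and vomeronasal receptor genes in the same library (x axis); points are libraries coloured by group, with marker shape for the tier. Lrrtm2, Lrrtm3 and Lrfn5 step down from tier to tier, and Lrrtm1, Lrfn1, Lrfn3 and Lrfn4 have lower medians in the high tier only. Lrfn2 is level on this TMM-scaled axis, but not by library total alone.

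Correlations of the genes over the 16 libraries are given as a description, since the libraries share depth and background. They use the same values as the shapes above and are no separate evidence for them. In log2 CPM the closest pair was Lrrtm3 and Lrfn5 (Pearson r = 0.97), followed by Lrrtm2 and Lrrtm3 (0.95) and by Lrrtm1 and Lrfn1 (0.95). Pairs with Lrfn2 had r between -0.19 and 0.20. After group and background were taken out of each gene by a linear fit, Lrrtm1 and Lrfn1 remained at 0.92 and Lrfn1 and Lrfn3 at 0.91. A straight line is a coarse summary for Lrrtm1, Lrfn1, Lrfn3 and Lrfn4, so a shared curve along the background can remain in such values. By the same fit, Lrrtm4 went from 0.09 to -0.64 against Lrfn3 and from 0.13 to -0.45 against Lrfn4. By the same measure over 17886 protein-coding genes, the gene most like Lrrtm1 was Fam222b (0.98), most like Lrrtm2 was Rlim (0.97), most like Lrfn1 was Oprd1 (0.97) and most like Lrfn3 was Calcoco1 (0.97). For Lrfn4 it was Lzts3 (0.96), for Lrfn5 Msl2 (0.96), for Lrrtm3 Rfc1 (0.92) and for Lrrtm4 Cpsf6 (0.92). The closest to Lrfn2 was Ms4a13 at 0.86, the lowest of the 9 maxima. Each maximum comes from a search over 17886 genes with 16 libraries. How high such a maximum runs without any link was not tested.

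Lrrtm1 and Lrfn3 were among the pairs that varied most alike (r = 0.93, and 0.88 after group and background). Lrrtm4 and Lrfn3 had r = 0.09 in log2 CPM, and -0.64 only after group and background. The windows upstream of these 3 genes are shown for that reason. Each is the 250 bases before the RefSeq gene start (GRCm38.p6), 5′ to 3′ on the gene's strand, with each CG dinucleotide in capitals. The letters CG read the same on both strands.
Lrrtm1: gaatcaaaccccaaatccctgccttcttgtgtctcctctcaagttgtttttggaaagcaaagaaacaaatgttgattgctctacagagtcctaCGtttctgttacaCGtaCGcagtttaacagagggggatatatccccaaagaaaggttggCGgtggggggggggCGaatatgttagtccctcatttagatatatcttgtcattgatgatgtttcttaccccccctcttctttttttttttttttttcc
Lrfn3: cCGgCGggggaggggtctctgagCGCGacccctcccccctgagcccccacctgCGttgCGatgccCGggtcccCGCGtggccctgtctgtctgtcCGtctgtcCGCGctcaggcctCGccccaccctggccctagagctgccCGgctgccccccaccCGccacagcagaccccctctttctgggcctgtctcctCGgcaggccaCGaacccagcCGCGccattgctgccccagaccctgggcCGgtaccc
Lrrtm4: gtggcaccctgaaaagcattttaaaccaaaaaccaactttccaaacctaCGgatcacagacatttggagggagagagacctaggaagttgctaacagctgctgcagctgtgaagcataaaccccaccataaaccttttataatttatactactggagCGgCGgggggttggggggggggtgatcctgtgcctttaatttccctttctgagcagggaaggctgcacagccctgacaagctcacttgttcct
The windows lie at chr6:77242227-77242476 (+, Lrrtm1), chr7:30362773-30363022 (-, Lrfn3) and chr6:80018627-80018876 (+, the first of 2 windows listed for Lrrtm4). They hold 5, 20 and 3 CG dinucleotides for Lrrtm1, Lrfn3 and Lrrtm4, beside a median of 6 over 32851 such windows. Lrrtm1 and Lrfn3, which varied alike, differ in this feature. Lrfn3 and Lrfn4 also varied alike (r = 0.90, and 0.84 after group and background) and hold 20 and 21. The pairs were picked after their values were seen, and a link between this feature and how genes vary was not tested. The other windows hold 6 (Lrrtm3), 8 (the second of Lrrtm4), 21 (Lrfn4) and 27 (Lrfn5).

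Partners and relatives of both families, taken from lists, gave 0 genes past the test between the groups in each list, in edgeR and in DESeq2, beside 0.00381% and 0.0533% of all genes. At an unadjusted p under 0.05 in edgeR the lists held Cbln2 and Lingo1 only, beside 1.12% of all genes. Of the 9 presynaptic partners of LRRTM proteins (neurexins and glypicans), the smallest p values belonged to Gpc1, with a log2 fold change of 0.24 ± 0.16, and Gpc6, with -0.40 ± 0.29 (SE). Of the 3 LAR-family phosphatases that bind SALM proteins, Ptprs had 0.10 ± 0.21 and Ptprf 0.04 ± 0.11. Of the 4 scaffolds of the PSD-95 family, Dlg1 had -0.14 ± 0.18 and Dlg4, which encodes PSD-95, 0.08 ± 0.21. Among 8 other neurexin ligands, Cbln2, a secreted bridge between neurexins and glutamate receptors of the delta type, had 5.88, 6.84 and 7.83 CPM (lowest, median, highest) in eGFP-GluA2 libraries and 2.25, 4.52 and 6.96 CPM in eGFP libraries. Its log2 fold change was 0.57 ± 0.18 with an adjusted p of 1.00 in edgeR, and the other gene named from that list, Cbln4, had -0.35 ± 0.32. Among 17 other leucine-rich repeat adhesion genes, Lingo1 had 0.34 ± 0.12 and Slitrk5 0.21 ± 0.20. Of the 10 excitatory neuron markers 0 passed the test between the groups. Their log2 fold changes had a median of 0.17, with 8 above 0 and 2 below. The highest was that of Slc17a7, a vesicular glutamate transporter, at 0.58 ± 0.22 (SE). It was the only 1 of the 10 with an unadjusted p under 0.05 in edgeR. The part of these markers in the values above was not tested.

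With background, all 4 PSD-95 scaffolds fell, as did Ptprd and Ptprs of the 3 phosphatases, beside 31.5% of all tested genes that fell and 44% that rose (43.5% and 40.9% of protein-coding genes). Among the LRRTM partners Nrxn2, Nrxn3 and Gpc1 fell, by 0.15, 0.14 and 0.12 log2 units per doubling, and the glypicans Gpc2 to Gpc6 rose. Of the other neurexin ligands 5 fell and 2 rose, and of the other leucine-rich repeat adhesion genes 13 fell and 3 rose. The median slope was -0.12 for the 9 LRRTM and SALM genes and -0.15 for the scaffolds, beside 0.04 for all tested genes and -0.02 for protein-coding genes. The genes named for their slopes here were chosen after their values were seen.

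Lrrtm1, Lrrtm2 and Lrrtm3 each lie within an alpha-catenin gene on its opposite strand, a nesting shared by the LRRTM genes other than Lrrtm4. Lrrtm1 (chr6:77242689-77257791) lies in Ctnna2, Lrrtm2 (chr18:35209003-35215024) in Ctnna1 and Lrrtm3 (chr10:63928472-64090277) in Ctnna3. Between the groups Ctnna1 had a log2 fold change of -0.08 ± 0.14, Ctnna2 -0.06 ± 0.21 and Ctnna3 -0.02 ± 0.17 (SE), and 0 of 3 passed the test in edgeR, at an adjusted or unadjusted p under 0.05, or in DESeq2. With background, Ctnna1 and Ctnna2 fell along with the genes nested in them, by 0.08 and 0.17 log2 units per doubling, whereas Ctnna3 rose by 0.14 ± 0.02 (adjusted p = 1.46e-05, edgeR) and Lrrtm3 inside it fell. Over the 16 libraries, Lrrtm3 and Ctnna3 had r = -0.87, against 0.76 for Lrrtm1 and Ctnna2 and 0.83 for Lrrtm2 and Ctnna1. After group and background were taken out, the values were -0.41, 0.60 and 0.84 in the same order. The exons of Lrrtm1 and Lrrtm3 share no base with other genes of the annotation.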

How the data were processed

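Bulk RNA-seq of sorted, fixed PV interneurons was analysed in 7 eGFP-GluA2 and 9 eGFP libraries, which the labels number as biological replicates. Reads were 150-bp pairs, per the labels. Per the series' design text, the authors used bcbio-nextgen 1.2.3, STAR, GRCm38, Sailfish on the Ensembl annotation, and DESeq2. The deposited counts are whole reads per gene and not normalized. The deposited TPM values are scaled for transcript length by the authors. The deposited signal values are normalized counts, that is, reads of each gene over a library-wide factor, and 100% of them were whole multiples of 1 read within 0.001. They summed to between 10477517 and 17382059 reads in a library, not the same as in the count table. The authors' deposited table also gives a log2 fold change, a score (test statistic), p-values and adjusted p-values.

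Of 54532 identifiers 54495 were named from GENCODE M21 and the RefSeq tables. The main test was edgeR 4.0.16 (TMM, filterByExpr, quasi-likelihood F test with robust dispersion, Benjamini-Hochberg over 26257 genes, threshold 0.05). The filter kept 99.2% of counts. A second fit added log2 background. Log2 CPM used a prior count of 2. Tiers were under 500, 500 to 1500 and over 1500 CPM. Alternatives were DESeq2 1.42.0, other scalings and filters, covariates, 1 surrogate variable (sva 3.50.0), limma 3.58.1 on log2(TPM + 0.5) with genes over 0.5 TPM in at least 7 libraries, and leaving out each library. Further fits on recovered reads were chosen after seeing the data. Scripts ran in R 4.3.3 and Python 3.11.15 and were tested on simulated data.

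The members and lists were chosen with earlier results of these data known. The named genes are the 9 members, the 2 genes of smallest p in each list of partners or relatives, and the gene most like each member. Marker genes, 1 of the 3 host genes and genes given for their slopes stand outside that rule, and the marker genes named singly and the slope genes were chosen after their values were seen. Proteins are not used here, and some sequences and list genes are not reported here. Intervals and p-values measure the spread between these libraries. Origins from separate mice follow the labels' wording only.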

Additional observations from a re-analysis of the deposited data

How the results depend on the processing

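None of the 9 genes passed the test between the groups under any of the 18 other settings or without any 1 library. The number of all genes called, 1 in the main fit, was 14 with DESeq2, 2 with upper-quartile scaling, 2 with the library total, 7 with the replicate block, 9 with the background covariate, 11 with background tiers, 9 with 1 surrogate variable, 5 with the excitatory marker covariate, 3 on recovered reads, 2 on each TPM setting, 3 without the high-background libraries and 5 on recovered reads with the background covariate, the last chosen after seeing the data. Log2 fold changes near 0 changed sign: with the replicate block Lrrtm2 had 0.12, Lrfn2 0.038 and Lrfn5 0.093; with background tiers Lrrtm3 had -0.030 and Lrfn3 -0.034; with the excitatory marker covariate Lrrtm2 had 0.34 (adjusted p = 0.0766), Lrrtm4 0.0079, Lrfn2 0.0038 and Lrfn5 0.25. In that fit Lrrtm1 had 0.32, Lrrtm3 0.33, Lrfn1 0.45, Lrfn3 0.34 and Lrfn4 0.41, with adjusted p values of 0.0766 to 0.143. Such values were common there: 11183 of 26257 tested genes had an unadjusted p under 0.05 in edgeR, against 293 in the main fit. With upper-quartile scaling Lrfn4 had 0.21 (95% interval 0.08 to 0.33, edgeR unadjusted p = 0.00270, adjusted p = 1.00), and with the replicate block 0.28 (0.04 to 0.52, adjusted p = 0.576). On recovered reads Lrfn5 had 0.013. On log2(TPM + 0.5), with and without a filter, Lrrtm2 had 0.076, Lrrtm4 0.021, Lrfn2 0.074 and Lrfn5 0.10; with a pseudocount of 0.1 Lrrtm2 had 0.077 and Lrfn2 0.092, and with 1 they had 0.075 and 0.059. Without the high-background libraries Lrrtm3 had -0.026 and Lrfn2 0.022. Leaving out 1 library gave -0.16 to 0.027 for Lrrtm2, -0.032 to 0.11 for Lrrtm3, -0.056 to 0.043 for Lrfn2 and -0.061 to 0.063 for Lrfn5. The cause of these changes was not tested.

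Of the slopes on background, 8 of 9 passed with other scaling, a stricter filter or recovered reads. On log2(TPM + 0.5) 6 passed, where Lrrtm1 (adjusted p = 0.0522, limma) and Lrrtm4 (0.423) did not. Most genes passed in these fits. With RLE scaling 7707 of 26257 fell and 12143 rose, and with the stricter filter 8214 of 25874 fell and 11306 rose. On recovered reads 7685 of 23712 fell and 9507 rose, and on log2(TPM + 0.5) 5251 of 25426 fell and 8875 rose. Leaving out 1 library left 7 to 8 members, beside 17821 to 22323 of all genes. The slope of Lrfn2 was 0.015 with RLE scaling, 0.0099 on TPM, 0.020 with the replicate block and -0.020 to 0.028 without 1 library. With the replicate block 4687 genes (4591 rising, 96 falling) and 0 members passed, against 19818 (11549 rising, 8269 falling) and 8 in the main fit. The slopes themselves were -0.19 against -0.20 for Lrrtm2, -0.20 against -0.16 for Lrrtm3, -0.23 against -0.12 for Lrfn1 and -0.15 against -0.14 for Lrfn5, with SEs of 0.08 to 0.13 over the 9 genes against 0.02 to 0.04. The cause was not tested; libraries of the lowest and highest background also stand apart by replicate number. Same-numbered libraries correlated at -0.03 to 0.90, and 2 of 7 pairs fitted their own number best, so the numbers are not taken to pair the samples.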
